A study of Homo sapiens with 12 samples.

Results

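Drug efflux and organic anion transporter genes are described here across all groups of the study, as the 8 rows of the deposited table of 26125 genes whose symbol was ABCB1, ABCG2, ABCC1, ABCC2, ABCC3, ABCC4, SLCO2B1 or SLCO4A1. All 8 were in the table and all 8 were among the 12928 genes tested, which averaged 1 FPKM or more across the study's 12 libraries. The cells were Caco-2, an established line from a human colon adenocarcinoma that differentiates into a sheet resembling enterocytes, grown for 21 days on permeable inserts. The 4 groups of 3 libraries were ochratoxin A at 15 µmol/L together with the bacterium Bacillus subtilis CW14 (OTA plus CW14), ochratoxin A alone (OTA), the bacterium alone (CW14), and cells given neither (control). Agents were given in transport buffer in the upper, apical chamber. The exposure time is not in the labels, and neither is whether replicates of a group came from separate cultures. The p-values therefore measure only the spread between these libraries, which may be technical.

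ABC efflux pumps use ATP to move drugs, toxins and their conjugates out of the cell, and solute carriers of the SLCO family take up organic anions. Ochratoxin A is an organic anion made by moulds, and carriers of both families are known to handle it. In the enterocyte, P-glycoprotein (ABCB1), the breast cancer resistance protein (ABCG2) and MRP2 (ABCC2) face the gut lumen and return their substrates to it, whereas MRP3 (ABCC3) faces the blood side. MRP1 (ABCC1) and MRP4 (ABCC4) are broader exporters of conjugates and nucleotide analogues, MRP1 mainly on the basolateral side. SLCO2B1 encodes the uptake carrier OATP2B1 and SLCO4A1 the carrier OATP4A1.

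Promoter windows are shown for ABCG2, SLCO2B1 and ABCC4, the members called in a comparison of groups once the library that stood apart (described below the sequences) was left out. They are RefSeq sequences on GRCh38.p14, from 250 bases before to 50 bases after an annotated start site, and windows were held for 5 of the 8 members (11 windows in all), with ABCC1, ABCC3 and SLCO4A1 not among them. Capitals mark exact matches on either strand to the GC box GGGCGG, to GCGTG (the core bound by the aryl hydrocarbon receptor), to TGACNNNGC (the core of the antioxidant response element) or to TATAAA. None of the letters of these motifs overlapped in a printed window. ABCG2 and SLCO2B1 each have several annotated starts, and the deposited values do not say which were in use.
ABCG2 chr4:88158860-88159159 (minus strand): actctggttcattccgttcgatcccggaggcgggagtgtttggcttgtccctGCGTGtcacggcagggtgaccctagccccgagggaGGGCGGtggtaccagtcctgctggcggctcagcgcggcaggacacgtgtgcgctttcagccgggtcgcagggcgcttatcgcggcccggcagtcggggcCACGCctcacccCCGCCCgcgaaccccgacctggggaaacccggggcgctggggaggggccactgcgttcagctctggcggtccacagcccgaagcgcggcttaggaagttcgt
ABCG2 chr4:88231577-88231876 (minus strand): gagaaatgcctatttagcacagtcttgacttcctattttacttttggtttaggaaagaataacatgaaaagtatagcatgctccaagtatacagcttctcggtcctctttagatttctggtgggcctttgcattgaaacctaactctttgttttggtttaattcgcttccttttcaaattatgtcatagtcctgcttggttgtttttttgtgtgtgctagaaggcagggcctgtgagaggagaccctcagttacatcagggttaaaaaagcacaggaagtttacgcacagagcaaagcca
SLCO2B1 chr11:75150857-75151156 (plus strand): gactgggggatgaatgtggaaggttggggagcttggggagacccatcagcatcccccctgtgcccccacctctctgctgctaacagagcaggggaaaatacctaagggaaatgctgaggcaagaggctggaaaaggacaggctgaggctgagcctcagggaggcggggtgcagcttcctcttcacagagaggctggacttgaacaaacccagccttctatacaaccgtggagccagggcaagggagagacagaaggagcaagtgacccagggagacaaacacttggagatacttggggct
SLCO2B1 chr11:75159582-75159881 (plus strand): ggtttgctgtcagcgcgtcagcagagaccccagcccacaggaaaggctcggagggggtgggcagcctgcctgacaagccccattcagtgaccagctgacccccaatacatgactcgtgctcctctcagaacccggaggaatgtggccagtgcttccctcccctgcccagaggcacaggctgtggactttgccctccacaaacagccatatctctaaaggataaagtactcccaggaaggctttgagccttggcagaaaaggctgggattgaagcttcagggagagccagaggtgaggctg
ABCC4 chr13:95301402-95301701 (minus strand): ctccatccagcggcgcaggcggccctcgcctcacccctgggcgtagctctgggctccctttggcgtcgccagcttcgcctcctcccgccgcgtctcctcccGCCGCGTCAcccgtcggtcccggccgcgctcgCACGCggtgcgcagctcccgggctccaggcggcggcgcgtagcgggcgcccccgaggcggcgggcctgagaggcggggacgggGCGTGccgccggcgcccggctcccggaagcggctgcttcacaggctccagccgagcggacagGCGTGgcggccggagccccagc
The first ABCG2 window held 2 GC boxes and 2 GCGTG cores, and the second, farther upstream, held no match. Printed were the first window listed for a gene and the one with the most matches (the last listed of ties), and 3 other ABCG2 windows are not shown, of which 2 overlap the first and held 2 GCGTG cores each, 1 of them with 2 GC boxes as well, and 1 held an antioxidant core. The ABCC4 window held 3 GCGTG cores and 1 antioxidant core. Neither SLCO2B1 window held any of the 4 motifs. Among all 35116 promoter windows of this length, 45.0% held a GC box, 36.5% a GCGTG core, 13.3% an antioxidant core and 11.5% a TATAAA. These matches are descriptions of letters and not of binding sites.

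SLCO2B1 and ABCG2 had the highest averages in OTA, and ABCC2 its lowest in OTA plus CW14, but with all 12 libraries none of the 8 genes passed the test in any comparison. Each difference is between group means of log2(FPKM + 1), tested with limma over all 12 libraries with Benjamini-Hochberg adjustment over the 12928 genes; "called" means an adjusted p below 0.05. FPKM are by definition fragments scaled to transcript length and to the mapped fragments of a library. Any further scaling between libraries is not stated. Values after ± are SDs over a group's 3 libraries (n = 3). For OTA against control 0 of 8 members were called, where 17.7% of all genes tested were. For CW14 against control 0 of 8 were called, with 0.364% of all genes. For OTA plus CW14 against OTA the counts were 0 of 8 and 16.0%, and against CW14 they were 0 of 8 and 32.3%. Against control they were, for OTA plus CW14, 0 of 8 and 28.8%. For the interaction, which asks whether the OTA effect differed with and without CW14, they were 0 of 8 and 3.33%, and for any difference among the 4 groups 0 of 8 and 37.5%. At an unadjusted p under 0.05 in limma there were 2 members in OTA against control, 0 in CW14 against control, 2 in OTA plus CW14 against OTA, 1 against CW14, 0 against control and 1 in the interaction. No other tool was run.

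OTA plus CW14 replicate 3 stood apart from the other libraries and bears on most of these results. Its residual SD over all genes was 0.588, against 0.305 to 0.424 in the other 11 libraries, and it held the lowest or highest value of the 12 in 59.2% of all genes and in 6 of the 8 members, where the other libraries did so in 4.96% to 19.5% of all genes. It had the lowest value of ABCB1, ABCG2, ABCC2, ABCC4 and SLCO2B1 and the highest of ABCC3. Its relative depth, recovered from the steps of low FPKM values, was 0.470 of that of control replicate 1, the lowest of the 12. The other OTA plus CW14 libraries were also shallow, at 0.642 and 0.674, as was OTA replicate 2 at 0.660. All remaining libraries ran between 0.774 and 1.60, so low depth went largely with the OTA plus CW14 group. Per gene, its departure from the 12-library mean went up with transcript GC content (Spearman rho = 0.496 across 12096 genes, which are not independent replicates). The same rho was 0.241 and 0.0840 in replicates 1 and 2 of OTA plus CW14. In every library of the other groups it was negative, from -0.311 to -0.0342. The sign of the GC trend thus went with the group, and leaving out replicate 3 does not remove it from comparisons with OTA plus CW14. Among the members, ABCB1, ABCG2, ABCC4 and ABCC2 had transcripts of 41.2% to 44.9% GC and lay at -0.45, -0.62, -0.47 and -0.56 from their own 12-library means on the log2(FPKM + 1) scale in this library. SLCO2B1, at 53.1% GC, lay at -0.49, and ABCC1, at 54.9%, at -0.09. ABCC3, at 55.8%, lay at 0.72, and SLCO4A1, at 61.4%, at -0.03. The part of depth in the members' differences was not tested. That of GC content was not tested beyond the corrected fit, given with SLCO4A1, ABCG2 and ABCC1. Of 16 enterocyte markers 14 passed the filter, among them VIL1 at 19.2 to 34.6 FPKM and CDX2 at 45.2 to 102 FPKM in the 12 libraries, whereas SI, the sucrase-isomaltase of mature enterocytes, did not exceed 0.148 FPKM. Of 12 markers of other cell types 4 passed, led by CD68 and LYZ, and PTPRC and DCN were listed at 0 in every library. The 16 enterocyte markers summed to 11048 to 27799 FPKM in OTA plus CW14, 10971 to 11982 in OTA, 8997 to 9599 in CW14 and 10440.2 to 11140.3 in control, of which APOA1 alone held 3131 to 19185 FPKM over the 12 libraries. The summed level of the 12 other markers was 96.3 to 126 FPKM in OTA plus CW14, 160 to 200 in OTA, 92.1 to 119 in CW14 and 112 to 149 in control, and the part of either list in the members' differences was not tested.

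**Figure D1:**
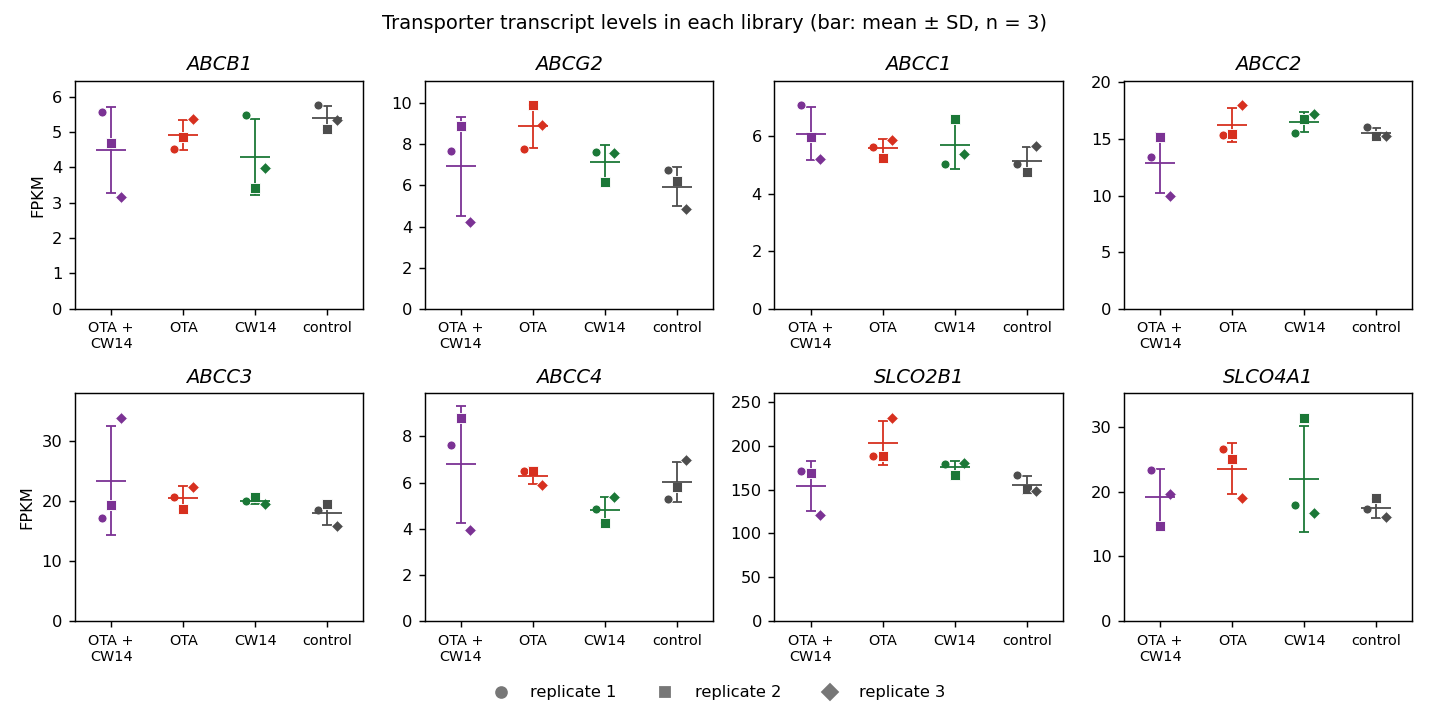
FPKM of the 8 transporter genes (vertical axes, FPKM, starting at 0) in each library of the 4 groups, with replicates 1 to 3 as circles, squares and diamonds and the group mean ± SD as bars. SLCO2B1 reaches 232 FPKM in OTA, no other gene exceeds 33.9 FPKM, and OTA plus CW14 replicate 3 (purple diamond) is the lowest or highest library of 12 in 6 panels.

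Among the uptake carriers, SLCO2B1 was by far the most abundant member. Over the 12 libraries it averaged 172 FPKM, which placed it at rank 431 of the 12928 genes tested, and it made up 65.5% ± 4.61 of the summed FPKM of the 8 members in OTA plus CW14, 70.1% ± 2.63 in OTA, 68.6% ± 2.96 in CW14 and 67.8% ± 1.27 in control. FPKM are scaled to transcript length, so levels can be set side by side between genes, but only roughly, given the GC trend described above. The SLCO2B1 locus (chromosome 11, 74862030 to 74917445, hg19 as deposited) held no other row of the table. Its level was 172, 169 and 121 FPKM in OTA plus CW14, 188, 189 and 232 in OTA, 179, 167 and 181 in CW14, and 167, 150 and 148 in control. The 3 OTA libraries lay above all 3 controls and above all 3 OTA plus CW14 libraries, and the 3 CW14 libraries also lay above the controls, by a narrow margin.

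SLCO2B1 averaged 203 ± 25.3 FPKM in OTA and 155 ± 10.1 FPKM in control, a log2 difference of 0.38 (SE 0.15, 95% confidence interval 0.06 to 0.71, limma adjusted p = 0.102). Without OTA plus CW14 replicate 3 the same difference had a limma adjusted p of 0.00856, since that library enters the shared estimate of spread but not the means. In OTA plus CW14, at 154 ± 28.5 FPKM, against OTA the log2 difference was -0.41 (SE 0.15, interval -0.73 to -0.08, limma adjusted p = 0.0819). That difference was -0.24 without replicate 3 (limma adjusted p = 0.115), and without replicate 2 it was -0.48 and was called (0.0471). Against CW14 the combined libraries differed by -0.21 (interval -0.53 to 0.12), or by -0.04 without replicate 3, and CW14, at 176 ± 7.33 FPKM, differed from control by 0.18 (interval -0.15 to 0.51). The interaction was -0.59 (SE 0.21, interval -1.05 to -0.13, limma adjusted p = 0.121). The test of whether the OTA difference depended on CW14 thus did not pass in the main fit. With array weights, added after the data were seen, the interaction was -0.45 and was called (limma adjusted p = 0.0296).

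SLCO4A1 (chromosome 20, 61273795 to 61303647, a locus it shares with the antisense gene SLCO4A1-AS1, whose mean was 0.0911 FPKM) had 23.3, 14.6 and 19.6 FPKM in OTA plus CW14, 26.6, 25.0 and 19.1 in OTA, 17.9, 31.4 and 16.6 in CW14, and 17.3, 19.0 and 16.1 in control. The OTA libraries lay above the controls, the lowest of them by only a small margin, and CW14 replicate 2 was the highest of all 12. The OTA mean of 23.6 ± 3.97 FPKM stood against 17.5 ± 1.46 FPKM in control, a log2 difference of 0.40 (SE 0.24, interval -0.11 to 0.92, limma adjusted p = 0.275). CW14 against control gave 0.26 for SLCO4A1 (interval -0.25 to 0.78), and -0.01 without CW14 replicate 2. OTA plus CW14 against OTA gave -0.29 (interval -0.81 to 0.22), -0.12 without OTA plus CW14 replicate 2 and -0.57 after the GC correction.

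Among the efflux pumps of the lumen side, ABCG2 had the largest OTA difference. ABCG2 (chromosome 4, 89011414 to 89152474) had 7.67, 8.88 and 4.22 FPKM in OTA plus CW14, 7.80, 9.90 and 8.94 in OTA, 7.65, 6.17 and 7.60 in CW14, and 6.75, 6.21 and 4.88 in control. Every OTA library lay above every control, and in OTA plus CW14 replicates 1 and 2 lay near the OTA libraries while replicate 3 lay below the controls. The OTA mean was 8.88 ± 1.05 FPKM and the control mean 5.95 ± 0.963 FPKM, a ratio of 1.49 and a log2 difference of 0.51 (SE 0.22, interval 0.03 to 1.00, limma adjusted p = 0.141). It was called without OTA plus CW14 replicate 3 (adjusted p = 0.0187) and after a correction of each library for transcript GC content (difference 0.55, adjusted p = 0.0423); the GC correction was added after the data were seen. For CW14 against control the log2 difference of ABCG2 was 0.23 (interval -0.25 to 0.72), and for OTA plus CW14 against OTA it was -0.36 (interval -0.85 to 0.12), or -0.09 without replicate 3. Replicate 3 of OTA plus CW14 is outside the OTA and control groups, so leaving it out changed the spread and not the ABCG2 means. Fitting only the OTA and control libraries also called ABCG2 (limma adjusted p = 0.0315) and SLCO2B1 (0.0213).

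In OTA against control 3 of the 8 members (ABCG2, SLCO2B1 and SLCO4A1) had groups that did not overlap, all higher in OTA, and 50.0% of all genes tested had groups that did not overlap. The matching counts were 1 of 8 and 20.5% for CW14 against control (SLCO2B1), 2 of 8 and 34.4% for OTA plus CW14 against OTA (ABCC2 and SLCO2B1), 1 of 8 and 41.8% against CW14 (ABCC2), and 1 of 8 and 41.9% against control (ABCC2). The members' share was the lower in each of the 5 comparisons, which share libraries. With 8 members a single gene moves that share far, so nothing is concluded from it. Without OTA plus CW14 replicate 3 limma called 2 of 8 members in OTA against control (33.8% of all genes) and 1 of 8 in OTA plus CW14 against CW14 (33.7%). It then called 0 of 8 in CW14 against control (0.951%), in OTA plus CW14 against OTA (21.2%) and against control (32.7%), and in the interaction (12.3%), and 3 of 8 for any difference among the 4 groups (50.4%), these being ABCG2, ABCC4 and SLCO2B1.

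ABCC2, the lumenal pump for conjugated anions (chromosome 10, 101542353 to 101611949), was nearly level in 3 of the groups. It had 13.4, 15.2 and 9.97 FPKM in OTA plus CW14, 15.3, 15.5 and 18.0 in OTA, 15.5, 16.8 and 17.2 in CW14, and 16.1, 15.3 and 15.2 in control. The OTA plus CW14 libraries lay below those of every other group, replicate 2 by a margin of under 0.1 FPKM below the lowest control. OTA against control gave a log2 difference of 0.06 (interval -0.27 to 0.39) and CW14 against control one of 0.08 (interval -0.25 to 0.41). In OTA plus CW14 the mean of 12.9 ± 2.66 FPKM gave -0.33 against OTA, at 16.3 ± 1.49 FPKM (interval -0.66 to -0.0014, limma adjusted p = 0.149), and -0.35 against CW14, at 16.5 ± 0.902 FPKM (interval -0.68 to -0.02, limma adjusted p = 0.092). Both were called without OTA plus CW14 replicate 2 (adjusted p = 0.0471 and 0.0275), which leaves replicate 3 as 1 of 2 libraries, and without replicate 3 they were -0.17 and -0.19.

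ABCB1, the P-glycoprotein gene (chromosome 7, 87133177 to 87461613, shared with RUNDC3B at a mean of 0.574 FPKM), had 5.57, 4.69 and 3.17 FPKM in OTA plus CW14, 4.52, 4.85 and 5.37 in OTA, 5.48, 3.41 and 3.99 in CW14, and 5.75, 5.08 and 5.32 in control. All groups overlapped. OTA against control gave -0.11 (interval -0.54 to 0.32, limma adjusted p = 0.739), CW14 against control -0.29 (interval -0.72 to 0.14, 0.895) and OTA plus CW14 against OTA -0.13 (interval -0.56 to 0.30, 0.666). Without OTA plus CW14 replicate 3 the last of these turned to 0.05 and was not called.

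Among the exporters of the blood side and the broader exporters, no OTA or CW14 difference from control exceeded 0.27 in size. ABCC3 (chromosome 17, 48712216 to 48769063) had 17.1, 19.3 and 33.9 FPKM in OTA plus CW14, 20.7, 18.6 and 22.3 in OTA, 20.0, 20.7 and 19.5 in CW14, and 18.5, 19.5 and 15.9 in control. One value, that of OTA plus CW14 replicate 3, lay far above the rest, at 1.86 times the mean of the other replicates of its group. ABCC3 gave 0.19 for OTA against control (interval -0.27 to 0.64), 0.16 for CW14 against control (interval -0.30 to 0.61) and 0.12 for OTA plus CW14 against OTA (interval -0.33 to 0.57), the last becoming -0.17 without that library.

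ABCC1 had 7.06, 5.98 and 5.20 FPKM in OTA plus CW14, 5.60, 5.23 and 5.87 in OTA, 5.03, 6.59 and 5.38 in CW14, and 5.01, 4.74 and 5.66 in control. Its deposited locus (chromosome 16, 14995363 to 16462799) spans 22 other rows, among them its paralog ABCC6, so the coordinates are those of a bundle of genes and not of ABCC1 alone. It gave 0.10 for OTA against control (interval -0.24 to 0.43), 0.11 for CW14 against control (interval -0.22 to 0.45) and 0.20 for OTA plus CW14 against control (interval -0.14 to 0.54). The ABCC1 difference for OTA plus CW14 against control was 0.01 after the GC correction and 0.29 without OTA plus CW14 replicate 3, and was called with array weights (0.37, limma adjusted p = 0.0226), the GC correction and the array weights having been added after the data were seen.

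ABCC4 (chromosome 13, 95672081 to 95953700) had 7.60, 8.81 and 3.94 FPKM in OTA plus CW14, 6.49, 6.51 and 5.88 in OTA, 4.84, 4.25 and 5.35 in CW14, and 5.27, 5.81 and 6.96 in control. Replicates 1 and 2 of OTA plus CW14 were the highest of the 12 libraries and replicate 3 the lowest. The 3 OTA libraries lay above all 3 CW14 libraries. These groups were not among the comparisons, so no share of all genes stands beside this and nothing is concluded from it. OTA against control gave 0.06 (interval -0.43 to 0.55) and CW14 against control -0.27 (interval -0.76 to 0.23). OTA plus CW14, at 6.78 ± 2.54 FPKM, gave 0.37 against CW14, at 4.81 ± 0.551 FPKM (interval -0.13 to 0.86, limma adjusted p = 0.231). Without replicate 3 that difference was 0.66 and was called (SE 0.15, interval 0.34 to 0.99, limma adjusted p = 0.0061).

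**Figure D2:**
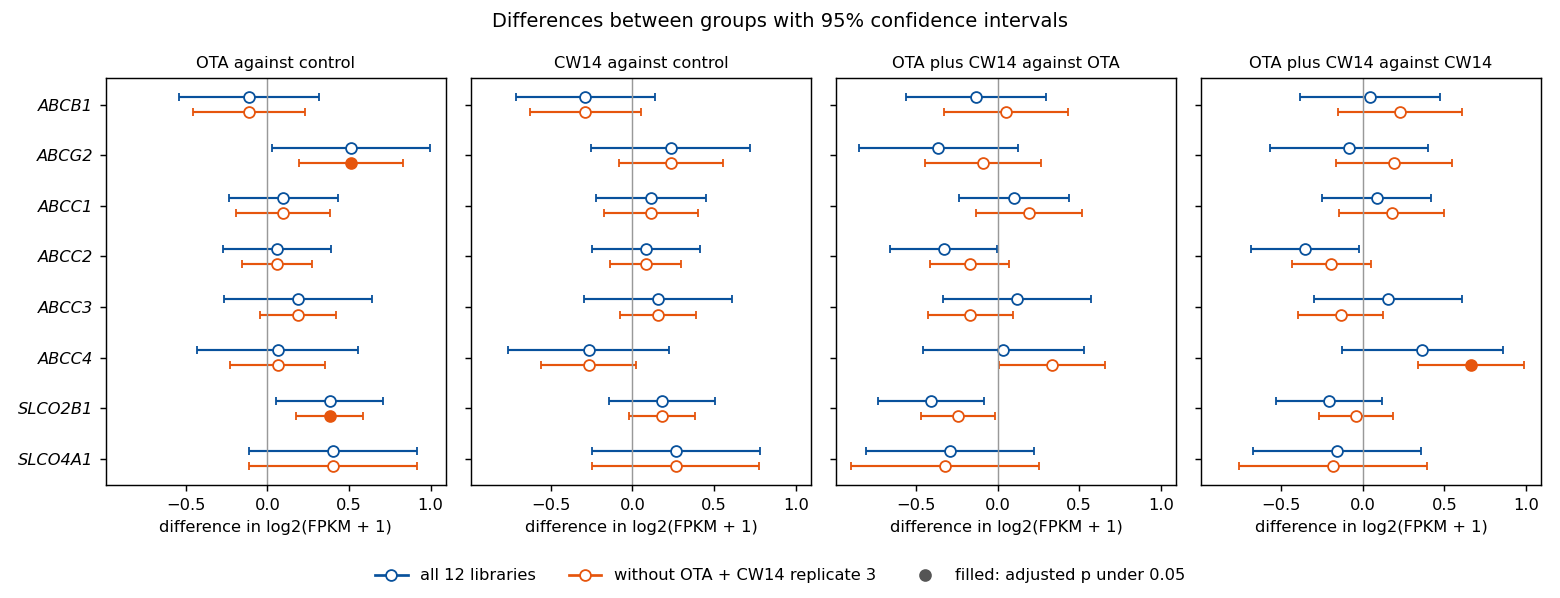
Differences in log2(FPKM + 1) between groups for the 8 genes (horizontal axis, points with 95% confidence intervals) in 4 comparisons, fitted with all 12 libraries (blue) and without OTA plus CW14 replicate 3 (orange). Filled points have an adjusted p under 0.05: none with all libraries, and ABCG2 and SLCO2B1 for OTA against control and ABCC4 for OTA plus CW14 against CW14 without that library.

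On the log2(FPKM + 1) scale, which understates the change of low genes, the widest upper bound for OTA against control was that of ABCG2 at 1.00 and the lowest lower bound that of ABCB1 at -0.54. A p that missed the threshold does not show that the levels were equal. Over the 8 members the median of the absolute log2 differences was 0.15 for OTA against control, where it was 0.31 over all genes tested. It was 0.21 for CW14 against control, with 0.15 over all genes, and 0.21 for OTA plus CW14 against OTA, with 0.33 over all genes. The signed median for OTA against control was 0.14 over the members, 7 of 8 of them positive, and 0.03 over all genes. The residual SD within groups ran from 0.14 for ABCC1 to 0.32 for SLCO4A1 over the members, beside a median of 0.26 over all genes.

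The order of the levels was the same at its top in every group, since SLCO2B1 lay above all other members in each library. A middle tier of SLCO4A1, ABCC3 and ABCC2 followed, with means over the 12 libraries of 20.6, 20.5 and 15.3 FPKM. SLCO4A1 and ABCC3 did not differ beyond their spread, and SLCO4A1 was the higher in 5 of 12 libraries. ABCC3 lay above ABCC2 in 12 of 12 libraries, although their ranges overlapped. ABCC2 lay above ABCG2 in 12 of 12 with no overlap of ranges. The lowest tier held ABCG2, ABCC4, ABCC1 and ABCB1 at 7.22, 5.97, 5.61 and 4.77 FPKM, and neighbours in it overlapped over the 12 libraries. The control order put ABCC4 at 6.01, ABCG2 at 5.95, ABCB1 at 5.38 and ABCC1 at 5.14 FPKM, values that overlapped between neighbours. In OTA the ranges of ABCG2 and ABCC4 did not overlap (8.88 ± 1.05 and 6.29 ± 0.360 FPKM). ABCC2 and ABCC3 together made up 59.9% ± 11.1 of the summed FPKM of the 6 ABC members in OTA plus CW14, 58.9% ± 2.33 in OTA, 62.5% ± 2.05 in CW14 and 59.8% ± 1.93 in control. The sum of the 6 was 60.5 ± 2.22 FPKM in OTA plus CW14, 62.5 ± 3.36 in OTA, 58.5 ± 0.55 in CW14 and 56.0 ± 1.81 in control. In OTA plus CW14 replicate 3 ABCC3 was higher and ABCB1, ABCG2, ABCC2 and ABCC4 were lower than in any other library, and the sum was 60.4 FPKM, between the 58.4 and 62.8 FPKM of the other libraries of its group.

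**Figure D3:**
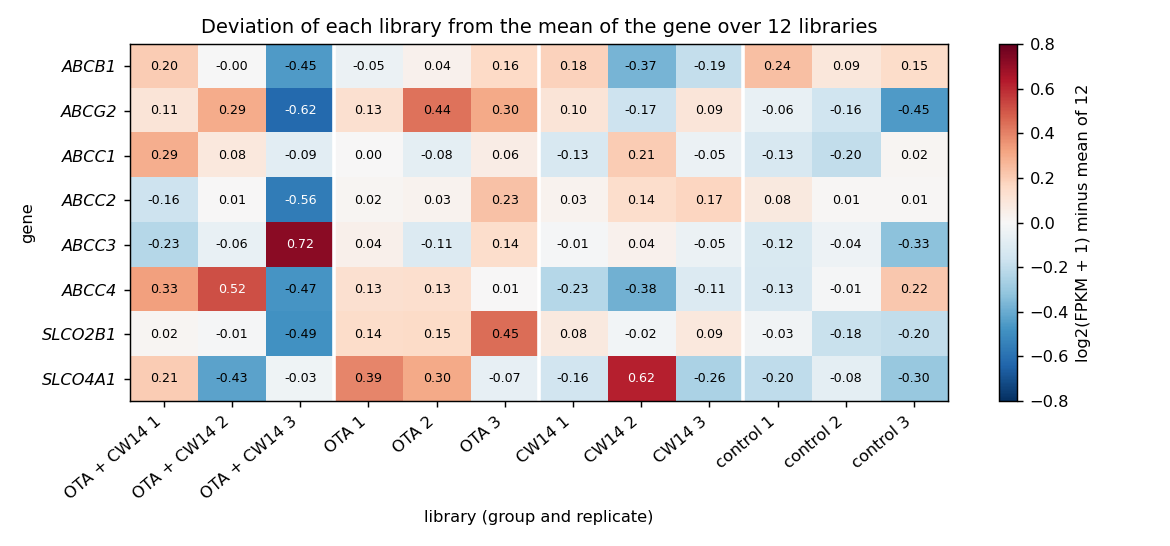
Deviation of each library (columns, by group and replicate) from the 12-library mean of each gene (rows), in log2(FPKM + 1), with red above and blue below the mean. OTA plus CW14 replicate 3 ranges from -0.62 for ABCG2 to 0.72 for ABCC3, whereas SLCO2B1 is above its mean in all 3 OTA libraries and below it in all 3 controls.

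Genes whose pattern over the 12 libraries was most like that of a member were looked up for the members with the smallest p-values in the test across groups, SLCO2B1, ABCC2 and ABCG2. SLCO2B1 was followed most closely by SLC35F5 (Pearson r = 0.957, Spearman rho = 0.958), LY75 (r = 0.954) and CTPS2 (r = 0.953). ABCC2 was followed by PIK3C2A (r = 0.971, rho = 0.874), CTNND1 (r = 0.962) and GTF2A1 (r = 0.962), and ABCG2 by HAVCR1 (r = 0.967, rho = 0.951), IYD (r = 0.966) and GALNT7 (r = 0.965). These genes were picked for the size of r among 12928, the libraries share their groups and depth, and no p is given. Without the pair of libraries farthest from the member's median, r was 0.884 for SLC35F5, 0.857 for PIK3C2A and 0.961 for HAVCR1. Between members, ABCG2 and SLCO2B1 had the highest r (0.851, and 0.742 without OTA plus CW14 replicate 3), as a description. ABCC2 and ABCC3 had r = -0.611 with that library and 0.647 without it.

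The other genes of transport and its control were grouped in lists chosen by function. Of 12 other ABC exporters 7 were tested, and 1 rose and 0 fell with OTA, where 4.82% of all genes tested rose and 12.9% fell. Over the alternatives 0 to 1 rose and 0 to 1 fell. The called gene was ABCB6, a mitochondrial and membrane porphyrin transporter, at 13.7 ± 0.728 FPKM in OTA and 7.73 ± 0.942 FPKM in control (log2 difference 0.75, SE 0.23, limma adjusted p = 0.0433). Its call was lost in 12 of 23 alternatives, among them without each control library in turn. The canalicular and sterol pumps ABCB4, ABCB11, ABCG1, ABCG5 and ABCG8 were below the filter. Of 28 other organic anion and cation carriers 13 were tested, and 0 rose and 0 fell with OTA (4.82% and 12.9% of all genes) or with CW14 (0.217% and 0.147%), with a median log2 difference of 0.19 for OTA. Over the alternatives 0 to 2 of the 13 rose with OTA. The renal ochratoxin carrier genes SLC22A6 (OAT1) and SLC22A8 (OAT3) had medians over the 12 libraries of 0 and 0.411 FPKM, and SLCO1B1, a liver uptake carrier, was listed at 0 in every library.

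MAFF, CEBPB, NFE2L2 and NR0B2 led the regulators of transporter genes that fell with OTA. Of 25 regulators 23 were tested, of which 1 rose, 9 fell and 13 did neither in OTA against control, where 4.82% of all genes tested rose and 12.9% fell, and the list median was -0.29. MAFF, a small Maf partner of NRF2, averaged 33.7 ± 8.03 FPKM in OTA and 193 ± 10.7 FPKM in control (log2 difference -2.51, SE 0.19, limma adjusted p = 4.64e-06). CEBPB, a C/EBP transcription factor, averaged 49.7 ± 10.9 FPKM in OTA and 244 ± 12.0 FPKM in control. NFE2L2, which encodes NRF2 itself, averaged 52.6 ± 5.23 FPKM in OTA and 206 ± 31.8 FPKM in control (log2 difference -1.94, SE 0.18, limma adjusted p = 1.71e-05). NR0B2, the bile acid responsive co-repressor SHP, averaged 0.315 ± 0.0325 FPKM in OTA and 2.96 ± 0.781 FPKM in control. Over the alternatives 0 to 2 regulators rose and 6 to 10 fell with OTA. With CW14 alone 0 of the 23 were called, where only 0.364% of all genes tested were. Over the alternatives 0 regulators rose and 0 to 1 fell with CW14. Without OTA plus CW14 replicate 3 the regulator that fell was CEBPB (limma adjusted p = 0.0455), where 0.951% of all genes were called.

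Among genes that xenobiotic receptors and NRF2 are known to drive, TIPARP, FGF19, SLC7A11 and TXNRD1 fell with OTA. Of 16 such genes 13 were tested, of which 0 rose, 7 fell and 6 did neither with OTA, with a list median of -0.54. Among all genes 4.82% rose and 12.9% fell. Over the alternatives 0 to 1 of the 13 rose and 4 to 7 fell. The 6 uncalled genes included CYP1A1 (log2 difference -0.09) and NQO1 (0.07, chosen for mention outside the naming rule), so the fall was not general to the list. TIPARP, a target of the aryl hydrocarbon receptor, averaged 5.19 ± 0.879 FPKM in OTA and 24.9 ± 0.837 FPKM in control (log2 difference -2.08, SE 0.21, limma adjusted p = 4.1e-05). FGF19, an enterokine induced by bile acids, averaged 0.669 ± 0.350 FPKM in OTA and 6.42 ± 1.58 FPKM in control. SLC7A11, which brings in cystine for glutathione, averaged 5.06 ± 1.49 FPKM in OTA and 14.3 ± 1.42 FPKM in control. TXNRD1, thioredoxin reductase, averaged 34.9 ± 2.92 FPKM in OTA and 81.1 ± 5.88 FPKM in control. CYP3A4, the drug-oxidising enzyme that shares many substrates with P-glycoprotein, was below the filter and did not exceed 0.246 FPKM.

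With CW14 alone 2 of these 13 genes rose and 0 fell, beside 0.217% and 0.147% of all genes. CYP1A1, the main enzyme induced through the aryl hydrocarbon receptor, averaged 40.6 ± 8.16 FPKM in CW14 and 15.6 ± 3.30 FPKM in control (log2 difference 1.33, SE 0.21, limma adjusted p = 0.0196). CYP1B1, induced through the same receptor, averaged 3.33 ± 1.09 FPKM in CW14 and 0.668 ± 0.422 FPKM in control (log2 difference 1.37, SE 0.26, limma adjusted p = 0.0486). The CYP1A1 call was lost in 8 of 23 alternatives and that of CYP1B1 in 15 of 22, among them without each control library in turn. CYP1B1 averaged 0.664 FPKM in OTA plus CW14 and 0.639 FPKM in OTA, so it met the filter of 1 FPKM only through the CW14 libraries. The CYP1B1 call, also lost without the filter, therefore adds no support to the count. ABCG2, which is also counted among the receptor's targets, had a CW14 difference of 0.23 that was not called.

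Of 11 genes that anchor and move the pumps at the apical membrane 10 were tested, of which 0 rose and 1 fell with OTA. Among all genes tested 4.82% rose and 12.9% fell, so the list was near the share of all genes. Over the alternatives 0 to 4 of the 10 rose and 1 to 2 fell. EZR, ezrin, the linker between membrane proteins and actin, averaged 109 ± 3.48 FPKM in OTA and 221 ± 12.7 FPKM in control (log2 difference -1.01, SE 0.10, limma adjusted p = 4.19e-05). PDZK1, a scaffold for apical transporters, had a log2 difference of 0.26 and was not called; it was chosen for mention outside the naming rule. In OTA plus CW14 against OTA, where 7.79% of all genes rose and 8.22% fell, 0 exporters and 0 carriers were called, 4 regulators rose and 2 fell, 0 anchoring genes rose and 3 fell, and 1 receptor target rose and 0 fell; without replicate 3 of OTA plus CW14, 2 carriers fell, 0 receptor targets rose and the other counts were the same. Set against control, where 12.0% of all genes rose and 16.8% fell, OTA plus CW14 had counts as follows: 0 exporters rose and 0 fell, 1 carrier rose and 0 fell, 1 regulator rose and 9 fell, 2 anchoring genes rose and 3 fell, and 0 receptor targets rose and 6 fell. Without replicate 3 of OTA plus CW14 those counts were 1 and 0, 2 and 1, 1 and 9, 2 and 2, and 0 and 6. Against CW14, where 14.8% of all genes rose and 17.5% fell, the OTA plus CW14 counts were 0 and 0 for exporters, 1 and 0 for carriers, 2 and 9 for regulators, 2 and 5 for anchoring genes and 1 and 6 for receptor targets, and without replicate 3 they were 2 and 0 for exporters, 1 and 2 for carriers and the same for the other lists. In the interaction, positive in 1.85% and negative in 1.49% of all genes, 1 regulator was called positive and 1 anchoring gene and 1 receptor target negative. Without replicate 3, 3 regulators were positive, and 1 regulator, 1 carrier, 2 anchoring genes and 2 receptor targets were negative. The comparisons against control share the control libraries, and those with OTA plus CW14 share its libraries. Whether fewer cells of a kind or less RNA per cell lay behind any level cannot be told apart in bulk RNA.

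**Figure D4:**
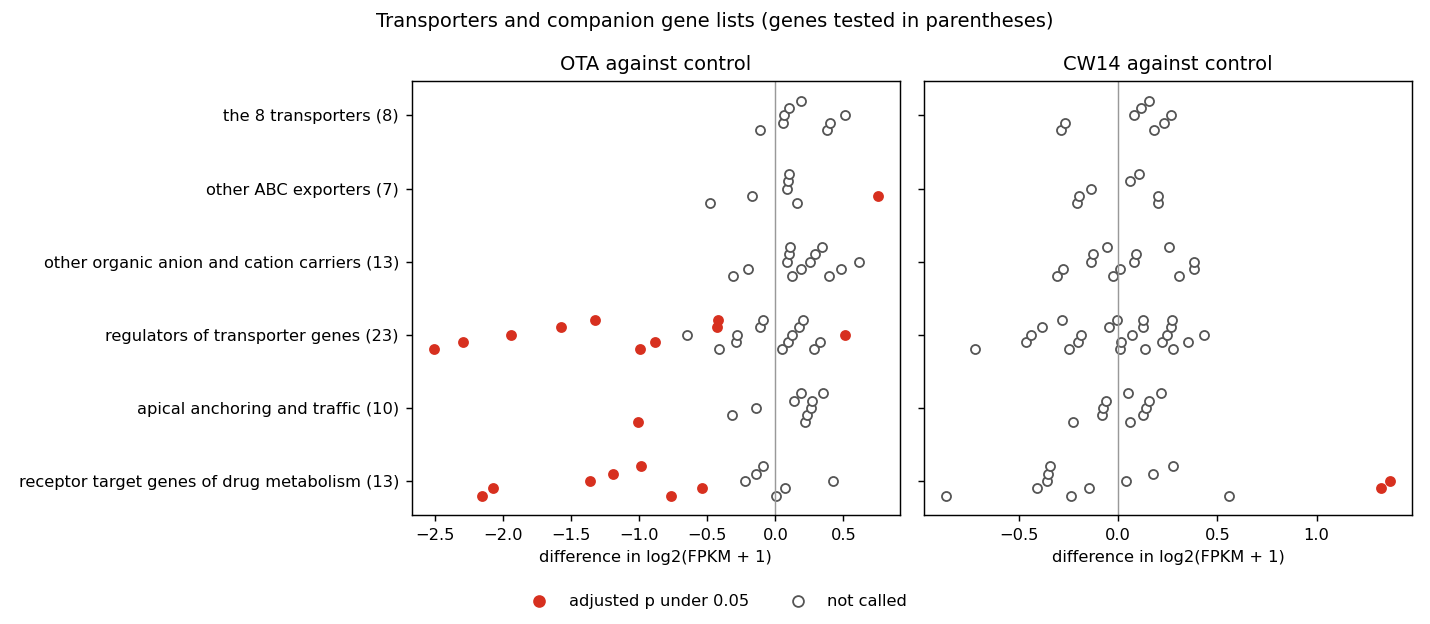
Differences in log2(FPKM + 1) (horizontal axis) for OTA against control (left) and CW14 against control (right), 1 point per gene tested, for the 8 transporters and 5 lists of related genes (rows), with red points at an adjusted p under 0.05. With OTA the transporters lie between -0.11 and 0.51 and 0 of 8 are called, where 17.7% of all genes are. Called lower are 9 of 23 regulators, 7 of 13 receptor target genes and 1 of 10 anchoring genes, beside 12.9% of all genes. Called higher are 1 of 7 exporters and 1 regulator, beside 4.82% of all genes.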

How the data were processed

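RNA of 12 Caco-2 libraries was read as 150-base pairs, per the labels' protocols. The authors deposited 1 FPKM value per gene and library. The submitters' processing notes list, without role or order, hg19 as the build and cutadapt 1.10, TopHat2 2.0.13, Cufflinks 2.2.1, Cuffdiff and Cuffnorm as tools. The annotation and any scaling between libraries are not stated there. No strand-specific kit step is stated. Depth is unknown, so no counting intervals are given.

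Groups and replicate numbers came from the sample titles. log2(FPKM + 1) of 12928 genes (mean over all libraries 1 FPKM or higher) was fitted in limma 3.58.1 (R 4.3.3) with 4 group means, an intensity trend and 8 residual degrees of freedom, two-sided. The fit was tested on simulated data in which a gene had the same spread in every library. That simulation held no outlying library, depth difference or GC trend, so it cannot show how the fit handles them. All 8 members are described; from each related list up to 4 genes with the largest called OTA differences and any called with CW14 are named, and the 3 genes most like each of 3 members. The members and lists were chosen with earlier results of these data known. Alternatives were the pseudocount, filters, scaling, groups fitted, trend, replicate block, and each library left out, plus array weights and GC correction added later. GC content came from GENCODE 29 transcripts. Replicate numbers were not taken as pairs.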

Additional observations from a re-analysis of the deposited data

Results flagged for a closer look

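CYP1A1, a target gene of the aryl hydrocarbon receptor in the related lists, was, with all 12 libraries, the named gene whose OTA effect differed with and without CW14 by the interaction test (log2 difference -1.46, limma adjusted p = 0.0284). It averaged 13.3 ± 3.06 FPKM in OTA plus CW14, 14.4 ± 1.15 in OTA, 40.6 ± 8.16 in CW14 and 15.6 ± 3.30 in control. Without OTA plus CW14 replicate 3 the named genes CEBPB (limma adjusted p = 0.015), NR0B2 (0.0334) and CYP1B1 (0.0425) passed it too. CYP1B1 had met the filter of 1 FPKM only through the CW14 libraries. No transporter among the 8 passed the interaction test in either fit. SLCO2B1 passed it with array weights, which were added after the data were seen (log2 difference -0.45, limma adjusted p = 0.0296). Groups of 3 libraries are too small for the check on single outlying libraries.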

How the results depend on the processing

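Of 1090 values of single transporters under the alternatives, 1039 kept their side of the threshold and moved little. A further 36 moved by more than 1 SE and 15 became called. No transporter was called in the main fit, so there was no called value that could change direction. Among the uncalled values 51 changed sign. Main counts of genes called were 2288 for OTA against control, 47 for CW14 against control, 2070, 4179 and 3729 for OTA plus CW14 against OTA, CW14 and control, 431 for the interaction and 4845 for any difference. Leaving out 1 library at a time gave 1299 to 4364, 4 to 123, 653 to 3388, 2780 to 5297, 2265 to 4776, 17 to 1595 and 3440 to 6515 genes in the same order. Transporters called were then 0 to 2 for OTA against control, 0 to 2 for OTA plus CW14 against OTA, 0 to 1 against CW14, 0 to 3 for any difference and 0 in the others. Fitting only the groups compared gave 4621 genes and 2 transporters for OTA against control, and 70, 1521 and 1596 genes for OTA plus CW14 against OTA, CW14 and control. Without a filter 25 genes were called for CW14 against control and 235 for the interaction. Array weights, added after seeing the data, gave 5417, 195, 4425, 5902, 3082 and 8125 genes for OTA against control, CW14 against control, OTA plus CW14 against OTA and control, the interaction and any difference; they called 2 transporters for OTA against control, 1 each for OTA plus CW14 against CW14, against control and for the interaction, and 3 for any difference. Median-centring and the GC correction each called 1 transporter for OTA against control, SLCO2B1 and ABCG2 in turn. The cause of these shifts was not tested. Median-centring moved the median of all genes by 0.11 for OTA against control, and 46.2% of calls were then higher in OTA, against 27.2% as deposited. ABCB1 was below the filter of 5 FPKM. Absolute depth is unknown, so counting error could not be set beside the spread.

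With the replicate block 286 genes were called for the interaction, and 2032, 43, 1807, 3952, 3526 and 4286 in the other comparisons, with 0 transporters in each. Same-numbered libraries had correlations of -0.15 to 0.15 over 18 pairs, and 0 of 12 libraries correlated best with their own number, so no pairing was used. Whether same-numbered libraries shared a culture or a run is not in the labels, and these correlations cannot decide it.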
